A study of Mus musculus with 9 samples.

Results

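The genes described here encode the proteins of the cytosolic ribosome, the particle that translates messenger RNA outside mitochondria. They were taken by symbol from a table of 46958 genes: Rpl or Rps followed by a digit, together with Rpsa, Rplp0, Rplp1 and Rplp2, leaving out symbols that contain "-ps" and the Rps6k kinases. This gave 91 genes, 53 of the large and 38 of the small subunit. 5 of them are pseudogenes in the GENCODE M21 annotation (Rpl37rt, Rps4l, Rps12l1, Rps3a2 and Rps3a3), and Rps19bp1 carries the prefix without being part of the ribosome. The genes are spread over 19 chromosomes, with at most 15 on any of them.

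RNA was sequenced from splenic plasma cells, the antibody-secreting cells of the B lineage, of 9 mice that had received no immunization. The cells were pulled from each spleen with magnetic beads against CD138, which gives an enriched and not a pure fraction. The mice were of 3 genotypes, namely kFRA, DH-LMP2A and wild type (WT), and each genotype had 3 mice. All mice were 3 months old and of a mixed strain background (C57/BL6, 129/SV and BALB/c, as the labels spell them). The series title names the toxicity of a free antibody light chain of light chain deposition disease (LCDD) to plasma cells, and the labels mark kFRA as the LCDD line. The labels do not describe the DH-LMP2A or kFRA alleles or what drives them, and do not say whether kFRA mice also carry DH-LMP2A.

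A ribosome holds 1 copy of nearly every one of its proteins, joined on ribosomal RNA, so cells make them in matched amounts. Their messages usually begin with a run of pyrimidines, the terminal oligopyrimidine (TOP) tract, through which mTOR and LARP1 control translation. Plasma cells depend on a high rate of translation to secrete antibody. Processed pseudogenes of these genes, copies of spliced messages inserted elsewhere in the genome, are numerous in mammals and can take up sequencing reads.

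The starts of the genes bear on this, because a TOP tract can be read directly from the sequence. Windows of 25 bases around the annotated start, 10 before it and 15 from it on, were read from RefSeq on GRCm38.p6, which had an entry for 67 of the 91 genes. A tract was counted where a C followed by at least 4 pyrimidines began exactly at the start, on the transcript's strand only. The lines below show the transcript strand from 5′ to 3′, with the tract in capitals. The first set holds Rpl28, which was higher in both other genotypes than in WT, and 5 further genes with a tract.
Rpl28: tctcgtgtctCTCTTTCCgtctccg
Rps6: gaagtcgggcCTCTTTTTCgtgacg
Rps18: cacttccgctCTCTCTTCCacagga
Rps27: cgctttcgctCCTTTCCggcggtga
Rpl38: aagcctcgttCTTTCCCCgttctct
Rplp2: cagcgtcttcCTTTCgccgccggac

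The second set holds genes that differed between genotypes and had no tract at their annotated start.
Rpl26: ggcaacttacagaaccggaagtcgc
Rpl5: cgtcgcttgcgtgctggtggtgcta
Rpl10: tacagtggaagataggccgcctata
Rpl4: tttcctgtgggagcagccgggtaga
Rpl24: gctgttgctaggaaacagactgggc
Rpl3l: ttctagctctgtcatttgacctctg

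The windows of Rpl28 and Rpl26 are chr7:4792955-4792979 and chr11:68901556-68901580, both on the plus strand, and that of Rps6 is chr4:86857353-86857377 on the minus strand. A tract was present at a start of 14 of the 67 genes, or 20.9%, against 813 of 27025 genes with an entry, or 3.01%. A missing match says only that these letters do not begin at that annotated base.

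Total counts per library ran from 15449026 to 21558128, so a floor of detection of 3 counts equals 0.139 to 0.194 CPM, a gene's count scaled to a common library total. Plasma cell markers such as Sdc1, which encodes CD138 (302 to 693 CPM), were present in every library. Of the 91 genes, 88 passed the filter on low counts. Rpl10l had 0 counts in every library, and Rpl39l and Rps12l1 were below the filter. CPM values below are scaled between libraries with TMM factors (trimmed mean of M values), and fold changes and adjusted p-values come from edgeR's quasi-likelihood test on all 9 libraries, adjusted by Benjamini-Hochberg over the 14199 genes tested. A gene is called higher or lower where its adjusted p-value was under 0.05. Each library is a separate mouse, and errors are SDs over 3 mice or standard errors (SE) of the log2 fold change.

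The ribosomal protein genes took a larger part of the counts in DH-LMP2A than in WT, and the kFRA mean lay between while its libraries overlapped those of DH-LMP2A. DH-LMP2A libraries gave them 4.01% ± 0.142 of all counts (SD, n = 3), kFRA libraries 3.44% ± 0.416 and WT libraries 2.29% ± 0.101. The 3 WT libraries held 2.35, 2.35 and 2.18%, the DH-LMP2A libraries 4.06, 3.84 and 4.11% and the kFRA libraries 3.19, 3.21 and 3.92%, so that WT overlapped neither other genotype and kFRA replicate 3 lay above DH-LMP2A replicate 2. Counting error was far smaller than this spread, for example 3.20 to 3.21% (Wilson 95% interval) for kFRA replicate 2. Immunoglobulin counts fill much of a plasma cell library, and between 27.3 and 55.4% of the counts here. With them left out of the total, DH-LMP2A stood at 5.66% ± 0.406 (SD, n = 3), kFRA at 5.79% ± 1.32, the highest mean, and WT at 4.54% ± 0.356. No test was made on these sums over genes. On that base kFRA replicate 2, at 4.53%, lay within the WT range of 4.17 to 4.88%, while kFRA replicate 3 was the highest of the 9 libraries at 7.16%.

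Large and small subunit genes kept nearly the same proportion. The counts of large subunit genes divided by those of small subunit genes gave 1.35 ± 0.00874 for DH-LMP2A (SD, n = 3), 1.38 ± 0.0516 for kFRA and 1.37 ± 0.00721 for WT. The kFRA libraries spread most, from 1.33 to 1.43. The median log2 fold change of DH-LMP2A against WT was 0.43 over 51 large subunit genes and 0.48 over 37 small subunit genes. For kFRA against WT the medians were 0.40 and 0.41.

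**Figure D1:**
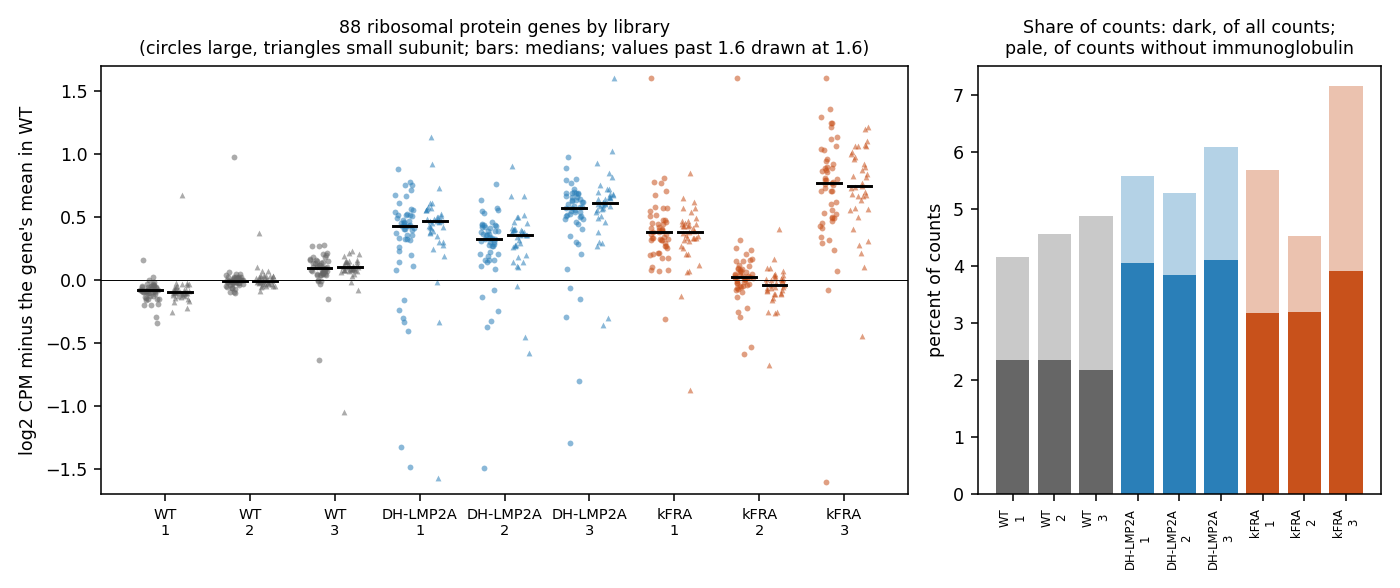
Left, log2 CPM of 88 ribosomal protein genes in each library minus the gene's mean over the 3 WT libraries (circles large subunit, triangles small subunit, bars medians, values past 1.6 drawn at 1.6). Right, the percent of counts held by all 91 genes in each library, of all counts (dark bars) and without immunoglobulin counts (pale bars); kFRA replicate 2 has a median of 0.005 and kFRA replicate 3 one of 0.763.

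Most of the genes were shifted by a similar amount within a library, and the libraries of a genotype did not all stand at the same level. Relative to the WT mean on the log2 CPM scale, the median of the 88 genes was 0.44, 0.35 and 0.59 in the DH-LMP2A libraries. It was 0.38, 0.005 and 0.76 in the kFRA libraries and −0.09, −0.007 and 0.10 in the WT libraries. Of the 88 genes, 78, 79 and 81 lay above their WT mean in the DH-LMP2A libraries, and 85, 46 and 85 in the kFRA libraries. On this scale kFRA replicate 2 therefore stood at the WT level, apart from the other kFRA mice. Its position depended on the scaling, as its TMM factor was 1.22, against 0.947 and 0.895 for kFRA replicates 1 and 3. Of all counts it held 3.21%, near kFRA replicate 1 (3.19%) and above every WT library (at most 2.35%). In bulk RNA, fewer cells of a type and less RNA per cell cannot be told apart.

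Ribosomal protein genes lay mostly above WT in DH-LMP2A. Of 88 genes tested, 9 were higher, among them the processed pseudogenes Rps3a2 and Rps3a3, and 1 was lower. Over all genes, 12.4% were called in this comparison, 5.07% as higher and 7.3% as lower. The median log2 fold change of the 88 genes was 0.46, or 1.38-fold, against −0.01 over all genes tested, and 80 of the 88 lay above 0, as did 49.1% of all genes. All 3 DH-LMP2A libraries lay above all 3 WT libraries for 74 of the 88 genes, a pattern that 17.5% of all genes showed, and below them for Rpl26, Rps27l and Rpl22l1 (19.1% of all genes). At an unadjusted p-value under 0.05 there were 46 of the 88 genes, where 26.6% of all genes tested reached it. With libraries scaled by their size alone, 76 were called higher and 1 lower. But the median over all genes then stood at 0.33, with 2571 of them called.

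Rpl28, a large subunit protein, measured 234, 244 and 263 CPM in WT and 454, 418 and 485 CPM in DH-LMP2A. Its log2 fold change was 0.88 ± 0.20 (SE), with an adjusted p of 0.0229 by edgeR. The groups did not overlap. Rpl28 shares exon sequence with Ube2s on the opposite strand, and the counting strand is not given in the sources used here, so its value is uncertain to that extent.

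Rps20, a small subunit protein, measured 299.5, 286 and 329.6 CPM in WT and 506, 484 and 581 CPM in DH-LMP2A. The log2 fold change was 0.78 ± 0.21 (SE), with an adjusted p of 0.0395 by edgeR, and again the groups were apart. Rpl5 binds 5S ribosomal RNA and, when ribosome assembly fails, the p53 regulator MDM2. It measured 412, 451 and 449 CPM in WT and 737, 632 and 809.9 CPM in DH-LMP2A. Its log2 fold change was 0.73 ± 0.16 (SE, adjusted p = 0.0172 by edgeR). Rpl5 overlaps Fam69a on the opposite strand.

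Rpl10, among the last proteins to join the large subunit, had 659, 654 and 809 CPM in WT and 1209, 1092 and 1222 CPM in DH-LMP2A (log2 fold change 0.73 ± 0.16, SE, adjusted p = 0.0194 by edgeR). Rpl4, with a long extension lining the tunnel through which the new protein leaves, had 679, 687 and 719.9 CPM in WT and 1142, 1020 and 1186 CPM in DH-LMP2A (0.68 ± 0.15, SE, adjusted p = 0.0192 by edgeR). Rpl7 and Rpl22, both of the large subunit, were higher by 0.61 ± 0.17 (SE) and 0.57 ± 0.16 (SE) on the log2 scale, with adjusted p-values of 0.044 and 0.0496 by edgeR. For each of these 4 genes every DH-LMP2A library was above every WT library. The calls rest on few mice: Rps20, Rpl7 and Rpl22 were called in 0 of the 6 fits that left out a mouse, Rpl28 and Rpl10 in 1 and Rpl4 and Rpl5 in 2, with every fold change still above 0.

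The highest log2 fold change among the 88 genes here, 1.29 ± 0.28 (SE, adjusted p = 0.0178 by edgeR), belonged to Rps3a2, followed by Rps3a3 at 0.89 ± 0.17 (SE, adjusted p = 0.0094 by edgeR). Both are processed pseudogenes in GENCODE M21 that carry the symbol of a small subunit protein. Rps3a2 measured 43.6, 45.5 and 49.4 CPM in WT and 101, 86.4 and 151 CPM in DH-LMP2A. Rps3a3 measured 4.71, 5.15 and 4.52 CPM in WT and 9.14, 7.66 and 9.84 CPM in DH-LMP2A. Neither overlapped between the groups. Of the 6 fits that left out a mouse, Rps3a2 was called in 3 and Rps3a3 in 6. Their protein-coding relative Rps3a1 was not called (log2 fold change 0.24 ± 0.20, SE, adjusted p = 0.527 by edgeR). With its pseudogene copies added, Rps3a2 and Rps3a3 included, it was not called either (0.38 ± 0.21, SE, adjusted p = 0.301 by edgeR). Rps3a3 was also the only gene lower in kFRA than in DH-LMP2A, where its kFRA libraries held 4.99, 4.52 and 5.14 CPM (log2 fold change −0.86 ± 0.17, SE, adjusted p = 0.0208 by edgeR), a call that 2 of 6 such fits kept.

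**Figure D2:**
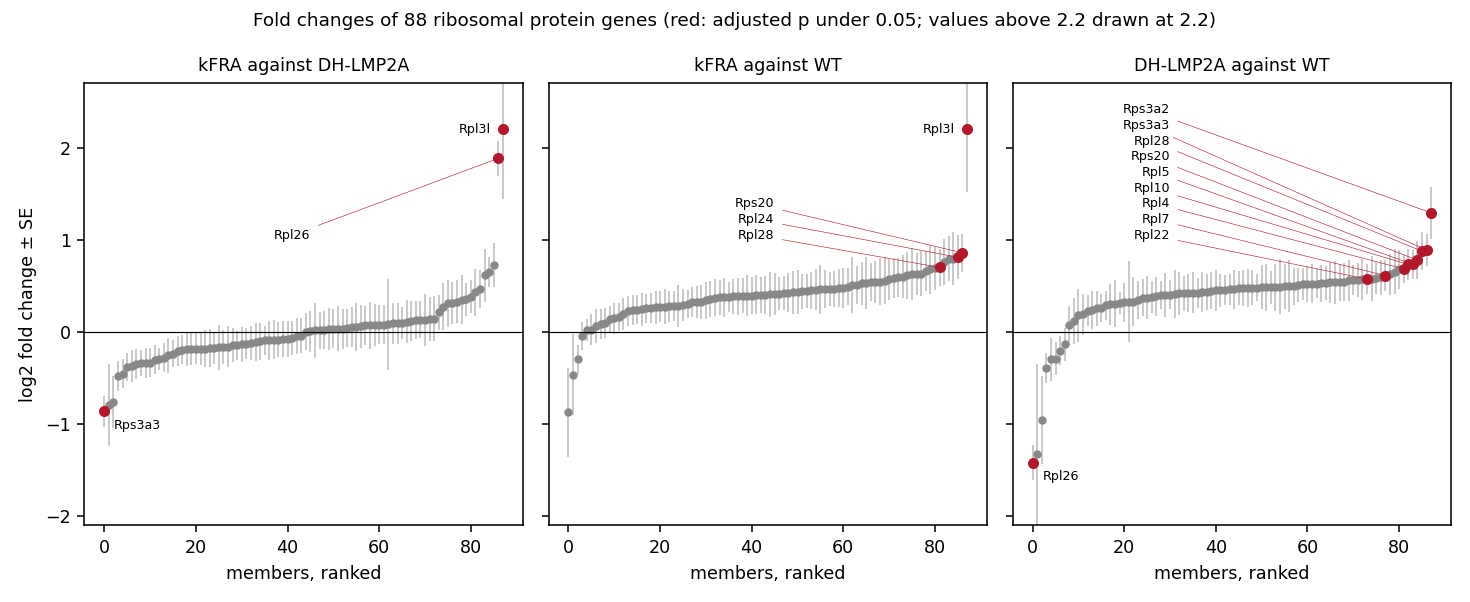
Log2 fold change with its SE for 88 ribosomal protein genes in 3 comparisons, each ranked from lowest to highest. Red points have an adjusted p-value under 0.05 (3, 4 and 10 genes), and in both comparisons with WT most points lie above 0 (84 and 80 of 88), while kFRA against DH-LMP2A is split evenly (44 of 88).

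Against WT, kFRA plasma cells had 4 ribosomal protein genes called higher and 0 called lower, with 17.8% of all genes called in this comparison and 6.68% called higher. This comparison has the same WT libraries as the last. Its median over the 88 genes was 0.41, or 1.32-fold, against −0.04 over all genes tested, with 84 of 88 above 0 where 47.3% of all genes were. At an unadjusted p-value under 0.05 there were 31 of the 88, at the background, since 35% of all genes tested reached it too. All kFRA libraries lay above all WT libraries for 13 of the 88 genes, near the 14.2% of all genes that did so, and below them for Rpl3 alone (20.2% of all genes). Scaled by library size alone, 71 genes were called higher, with the median over all genes at 0.17 and 3280 of them called. Without kFRA replicate 2, the library that stood apart on the TMM-scaled level, 62 ribosomal protein genes were called higher and the median was 0.65. The calls over the whole table then went from 2523 to 5632 genes.

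Rps20 was called here too, at 549, 402 and 707 CPM in kFRA (log2 fold change 0.86 ± 0.21, SE, adjusted p = 0.0219 by edgeR). Rpl28 measured 361, 307 and 534 CPM (0.70 ± 0.20, SE, adjusted p = 0.0436 by edgeR). Both lay above every WT library, with kFRA replicate 2 the lowest and replicate 3 the highest of the kFRA mice. Rpl24, a large subunit protein, measured 30.2, 19.6 and 43.3 CPM in kFRA and 16.7, 17.4 and 18.9 CPM in WT (0.81 ± 0.24, SE, adjusted p = 0.0456 by edgeR). Its kFRA replicate 2 was only just above WT. Rpl24 overlaps Gm28037 on the same strand, and its counted level was low for a ribosomal protein gene. Per kilobase of transcript it had means of 26.1 CPM in WT and 45.8 CPM in kFRA, where Rpl28 had 223 and 362. The part of the overlap in this low count was not tested. Of the 6 fits that left out a mouse, Rps20 was called in 2 and Rpl28 and Rpl24 in 1.

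Between kFRA and DH-LMP2A the median of the ribosomal protein genes was near 0, but it moved with the fit and with the mice included. It lay at −0.02 on the log2 scale and 44 of 88 genes were above 0, where all genes tested had −0.005 and 49.3%. 2 genes were called higher, Rpl3l and Rpl26, and 1 lower, Rps3a3. Over all genes 5.02% were called, 1.73% as higher and 3.3% as lower. An unadjusted p-value under 0.05 was reached by 12 of the 88 genes and by 22.4% of all genes tested. The kFRA libraries lay wholly above the DH-LMP2A libraries for 4 genes (11.6% of all genes did so), namely Rpl3l, Rpl26, Rps27l and Rpl22l1. They lay wholly below for 6 (13.9% of all genes), which were Rps3a3, Rpl4, Rpl5, Rpl10, Rpl15 and Rps7. With the counts of pseudogene copies added, Rpl4, Rpl5 and Rpl10 stayed wholly below but Rpl15 overlapped. For Rps7, copies held 9.66 to 13.7% of the summed counts in kFRA and 2.91 to 3.67% in DH-LMP2A. The middle of the distribution ran from −0.18 to 0.10 between its quartiles. The sign of the median followed the kFRA mice: it was 0.17 without replicate 2 and −0.27 without replicate 3. With a covariate of the markers of other spleen cells in the fit it was 0.21, and 70 of the 88 genes lay above 0.

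Rpl3l is the paralog of Rpl3 that replaces it in heart and skeletal muscle ribosomes, and all 3 kFRA libraries held it well above the floor of detection. The gene lies at chr17:24727820-24736143 (GRCm38, plus strand), overlaps no other gene and had no similar pseudogene. Its counts were 102, 88 and 131 in the kFRA libraries, 0, 4 and 1 in DH-LMP2A and 2, 8 and 1 in WT. Thus every kFRA library held many times the highest count elsewhere. In CPM the kFRA libraries held 6.98, 4.19 and 8.22. The log2 fold change was 6.31 ± 0.75 (SE, adjusted p = 0.00102 by edgeR) with DH-LMP2A as the reference and 4.98 ± 0.68 (SE, adjusted p = 0.00134 by edgeR) with WT. Since the other groups lie near or under the floor of detection, the size of these fitted values depends on the prior count. It was called in 6 of 6 fits that left out a mouse and in 11 of 11 other settings, in both comparisons. Per kilobase of transcript, the mean level of Rpl3l in kFRA was 1.65% ± 0.322 (SD, n = 3) of that of Rpl3, which itself was not called (322.6 to 439.8 CPM in kFRA, 445 to 482 CPM in WT).

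**Figure D3:**
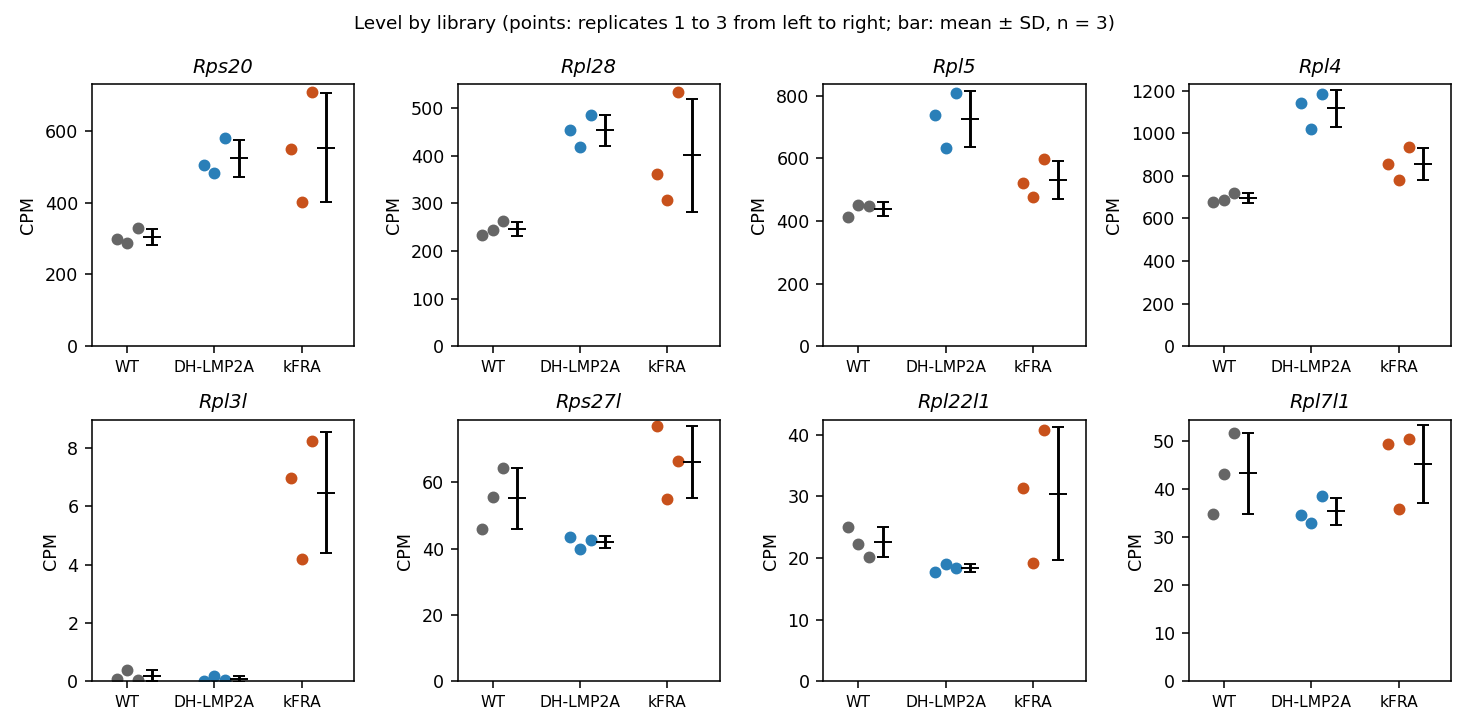
CPM of 8 ribosomal protein genes in the 9 libraries, with points for replicates 1 to 3 from left to right within each genotype and the mean ± SD beside them. Rps20, Rpl28, Rpl5 and Rpl4 are higher in DH-LMP2A than in WT without overlap, Rpl3l reaches 4.19 to 8.22 CPM in kFRA against at most 0.408 CPM elsewhere, and the paralogs Rps27l, Rpl22l1 and Rpl7l1 do not share the higher level in DH-LMP2A.

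3 paralogs stood lower against their partner genes in DH-LMP2A than in the other genotypes. Rps27l, a relative of Rps27 known as a p53 target, measured 45.9, 55.7 and 64.2 CPM in WT and 43.5, 39.9 and 42.6 CPM in DH-LMP2A. In kFRA it measured 76.9, 55.04 and 66.4 CPM. No DH-LMP2A library reached the lowest of WT or kFRA. The log2 fold change of kFRA against DH-LMP2A was 0.65 ± 0.16 (SE), with an adjusted p of 0.0521 by edgeR, just outside the threshold. Rpl22l1, the paralog of Rpl22, measured 25.1, 22.3 and 20.3 CPM in WT, 17.8, 19.0 and 18.4 CPM in DH-LMP2A and 31.3, 19.2 and 40.8 CPM in kFRA, and was not called in any of the 3 comparisons. It overlaps the antisense gene Gm33051.

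Expressed per kilobase as a percent of the partner, Rps27l stood at 6.59% ± 0.993 of Rps27 in DH-LMP2A (SD, n = 3), against 11.99% ± 2.88 in kFRA and 12.7% ± 0.593 in WT. For Rpl22l1 and Rpl22 the values for WT, DH-LMP2A and kFRA were 14.1% ± 2.31, 7.75% ± 0.959 and 15.7% ± 3.00 (SD, n = 3 each). For Rpl7l1 and Rpl7 they were 4.35% ± 0.730, 2.34% ± 0.129 and 3.79% ± 0.466 (SD, n = 3 each). In all 3 pairs the DH-LMP2A libraries lay below every library of WT and kFRA, a ratio on which no test was made. Part of the drop against WT lies in the partners, which shared the higher level in DH-LMP2A. Per kilobase, DH-LMP2A and WT means were 1300 and 873 CPM for Rps27, 433 and 291 for Rpl22 and 581 and 380 for Rpl7. Rpl36al stood at 131, 118 and 141% of Rpl36a, with overlapping libraries.

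After Rpl3l, Rpl26 had the largest log2 fold change of kFRA against DH-LMP2A. Rpl26, a large subunit protein at chr11:68901583-68906989 (GRCm38, plus strand), measured 105, 104 and 119.5 CPM in DH-LMP2A, 399, 307 and 507 CPM in kFRA and 277, 293 and 309 CPM in WT. DH-LMP2A was therefore apart from both. The log2 fold change was 1.88 ± 0.19 (SE, adjusted p = 0.000316 by edgeR) for kFRA against DH-LMP2A and −1.42 ± 0.19 (SE, adjusted p = 0.00152 by edgeR) for DH-LMP2A against WT. Its processed pseudogene Gm15772 showed the reverse: 373, 336 and 403 CPM in DH-LMP2A, 54.3, 34.9 and 74.5 CPM in kFRA and 36.7, 35.3 and 42.0 CPM in WT.

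With the counts of Rpl26 and its pseudogene copies added together, neither difference remained. The sum was 503.5 ± 44.5 CPM (SD, n = 3) in DH-LMP2A, 479.5 ± 129.5 in kFRA and 345.5 ± 21.4 in WT. The log2 fold change was then −0.07 (adjusted p = 0.863 by edgeR) for kFRA against DH-LMP2A and 0.54 (adjusted p = 0.117 by edgeR) for DH-LMP2A against WT, both with the sign turned. Pseudogene copies were taken as GENCODE pseudogenes matching the gene's principal transcript at 95% identity or more over at least 75 bases. Whether a read came from the gene or from its copy cannot be told apart from these counts, and how multiply mapped reads were counted is not given in the sources used here.

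**Figure D4:**
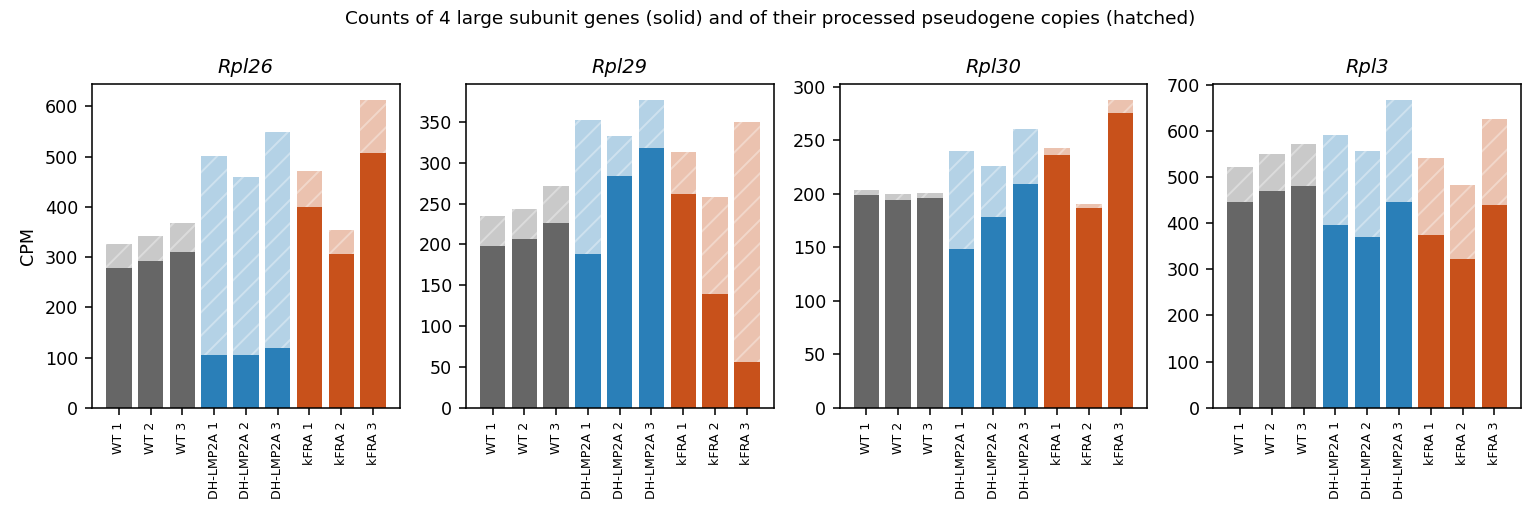
CPM of Rpl26, Rpl29, Rpl30 and Rpl3 (solid) with the CPM of their processed pseudogene copies stacked on top (hatched), per library. The solid part of Rpl26 is low in all 3 DH-LMP2A libraries while the stacked total is not, and Rpl29 has the same pattern in DH-LMP2A replicate 1 and kFRA replicates 2 and 3.

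Copies were counted for most of the genes: 80 of 86 with a protein-coding transcript had at least 1, with a median of 5 and a maximum of 62. For 59 of the 78 genes with copies in the table, the part of the summed counts that fell on the copies varied by under 5 percentage points across the 9 libraries. For 11 it varied by more than 10 points. Rpl26 had 77.3 to 79.1% on copies in DH-LMP2A and 13.6 to 16.6% elsewhere. Rpl30 had 37.9, 21.0 and 19.5% in DH-LMP2A and at most 3.43% elsewhere. Rpl3 had 29.1 to 33.5% in DH-LMP2A and kFRA and 14.7 to 16.0% in WT. Rplp1, a protein of the stalk that recruits elongation factors, had 8.58 to 15.5% in kFRA and under 0.2% elsewhere. So these shifts followed genotype in some genes.

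In Rpl29 the shift followed single mice. Rpl29, another large subunit protein, measured 188, 284 and 318 CPM in DH-LMP2A, 262, 139 and 56.3 CPM in kFRA and 198, 206 and 226 CPM in WT. The pseudogene Gm13841 held 78.6 CPM in DH-LMP2A replicate 1 and 56.2 and 164 CPM in kFRA replicates 2 and 3, and under 1 CPM in the other 6 libraries. The 3 libraries where Rpl29 was lowest were those 3, and with copies added the means were 353.9 ± 22 CPM in DH-LMP2A, 307.0 ± 46.6 in kFRA and 249.6 ± 19.5 in WT (SD, n = 3). The mice were of a mixed strain background, and the part of strain differences in these counts was not tested.

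With copies added for every gene, 80 of 85 genes had a log2 fold change above 0 in DH-LMP2A against WT and 84 of 85 in kFRA against WT. The genes below 0 were Rpl22l1, Rps4l, Rps27l, Rpl3l and Rpl7l1 in the first and Rps4l in the second. The calls were then Rps20, Rpl28, Rpl5, Rpl10, Rpl4 and Rpl7 as higher in DH-LMP2A, where 12.5% of genes were called (5.09% higher and 7.42% lower), and Rps20, Rpl28 and Rpl3l as higher in kFRA than in WT (18.2% of genes called, 6.95% as higher). Rpl3l alone was called between kFRA and DH-LMP2A (4.97% of genes called, 1.69% as higher and 3.28% as lower).

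Several well-studied members were not called. Rplp0, the base of the stalk, measured 747, 810.3 and 968 CPM in WT, 1333, 1246 and 1461 CPM in DH-LMP2A and 1245, 966 and 1580 CPM in kFRA. Its adjusted p-values were 0.0726 and 0.0861 against WT (edgeR). Rps6, the protein that the S6 kinases phosphorylate, measured 285, 313 and 324 CPM in WT, 451, 432 and 505 CPM in DH-LMP2A and 409, 317 and 511 CPM in kFRA. The adjusted p-values were 0.0715 for DH-LMP2A and 0.137 for kFRA (edgeR). Rpl11, which binds 5S RNA with Rpl5, Rps19, mutated in Diamond-Blackfan anaemia, and Rpl38 had log2 fold changes of 0.48, 0.46 and 0.31 in DH-LMP2A against WT, with adjusted p-values from 0.114 to 0.512. In all of these genes the 3 DH-LMP2A libraries lay above the 3 WT libraries. Within kFRA, replicate 2 was the lowest in each.

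Genes just outside the threshold came from both subunits. Rpl41, the smallest ribosomal protein, measured 389, 427 and 537 CPM in WT, 752, 654 and 722 CPM in DH-LMP2A and 781, 528 and 1037 CPM in kFRA. Its adjusted p was 0.0532 for kFRA against WT (edgeR), and kFRA replicate 2 lay below the highest WT library. Rps7 measured 312, 341 and 354 CPM in WT, 500.1, 439.9 and 544 CPM in DH-LMP2A and 352, 301 and 414 CPM in kFRA. For it the adjusted p was 0.0555 in DH-LMP2A against WT (edgeR), and the kFRA libraries overlapped WT. Rpl39, which sits in the exit tunnel, had an adjusted p of 0.0618 in the same comparison, at 151, 153 and 150.1 CPM in WT and 216, 184 and 233 CPM in DH-LMP2A. Its paralog Rpl39l reached at most 0.191 CPM in any library.

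Among the stalk proteins Rplp1 had the widest spread within kFRA. It measured 489.5, 493 and 532 CPM in WT, 557, 543 and 615 CPM in DH-LMP2A and 823, 509 and 1293 CPM in kFRA. kFRA replicate 2 thus lay within the WT range and replicate 3 was far above it, and the adjusted p against WT was 0.0849 (edgeR). With the counts of its pseudogene copies added, of which Gm11942 held the most in kFRA, replicate 2 stood at 556 CPM against a WT maximum of 531.9 CPM, and the adjusted p was 0.0554 (edgeR). Rplp2, its partner in the stalk, measured 217, 236 and 273 CPM in WT, 325, 308.5 and 389.9 CPM in DH-LMP2A and 301, 251 and 570.2 CPM in kFRA, with the same order of the kFRA mice.

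Levels between genes are compared only per kilobase of GENCODE transcript, as means over the 9 libraries. The length is that of a single annotated transcript, which need not be the one expressed. Rps24, for example, was given 1613 bases where its counted exons cover 840, so the order between genes depends on that choice. Rplp1 (1304 CPM per kilobase), Rpl41 (1190) and Rpl10 (1169) were highest in the large subunit and Rps29 (1225), Rps27 (1110) and Rps9 (886) in the small. The order in the large subunit turned with genotype. In WT Rplp1 led (1012 ± 47.7 CPM per kilobase, SD, n = 3), ahead of Rpl10 (885.3 ± 110.5) and Rpl41 (829 ± 141.5). In DH-LMP2A Rpl10 led (1470 ± 89.5, SD, n = 3), with Rpl41 at 1304 ± 92.3 and Rplp1 at 1146 ± 76.9. In kFRA Rplp1 led again (1754 ± 790.9, SD, n = 3), with a spread that covered Rpl41 (1437 ± 468) and Rpl10 (1152 ± 96.99). Rps29 and Rps27 led the small subunit in all 3 genotypes, while the third place was held by Rps12 in WT (702.6 ± 34.99) and by Rps9 in DH-LMP2A and kFRA. Among the lowest were Rpl3l (1.63), Rpl7l1 (15.9) and Rps19bp1 (11.7), the nucleolar protein that is not part of the ribosome.

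A match to the TOP tract exactly at the annotated start did not divide the genes by their fold change. Some genes without a match, such as Rpl27a, Rpl7a and Rpl13a, have a pyrimidine run across or near that base. The split therefore cannot compare messages with and without a TOP tract. Genes with a tract (14) had medians of 0.42 in DH-LMP2A against WT, 0.44 in kFRA against WT and −0.01 in kFRA against DH-LMP2A. Those without (51 tested) had 0.46, 0.40 and 0.003. Longer transcripts tended to lower fold changes in the comparisons with kFRA. Across 84 genes, which are not independent replicates and share their libraries, Spearman's rho between log2 fold change and length was −0.29 where kFRA was set against DH-LMP2A and −0.26 where it was set against WT. It was 0.07 for DH-LMP2A against WT. Over all 11760 genes with a length the values were −0.30, −0.28 and −0.05, so the ribosomal protein genes followed the whole table.

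Other parts of the translation machinery did not share the shift in the same way. Their lists are the mitochondrial ribosomal proteins (76 tested), elongation and initiation factors (38), RNA polymerase I (16), small nucleolar ribonucleoprotein and ribosomal RNA modification (14), assembly and export factors (42), regulators (16) and quality control (11). In DH-LMP2A against WT the medians of these 7 lists lay between −0.04 and 0.08, far under the 0.46 of the cytosolic ribosomal proteins. In kFRA against WT 6 of them lay between 0.19 and 0.30 and the regulators at −0.18, against 0.41. In kFRA against DH-LMP2A the mitochondrial ribosomal proteins had the highest median, 0.31, and 69 of 76 lay above 0, with 1 called higher, Mrps10 (log2 fold change 0.79 ± 0.16, SE, adjusted p = 0.0222 by edgeR). No test was made between lists.

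**Figure D5:**
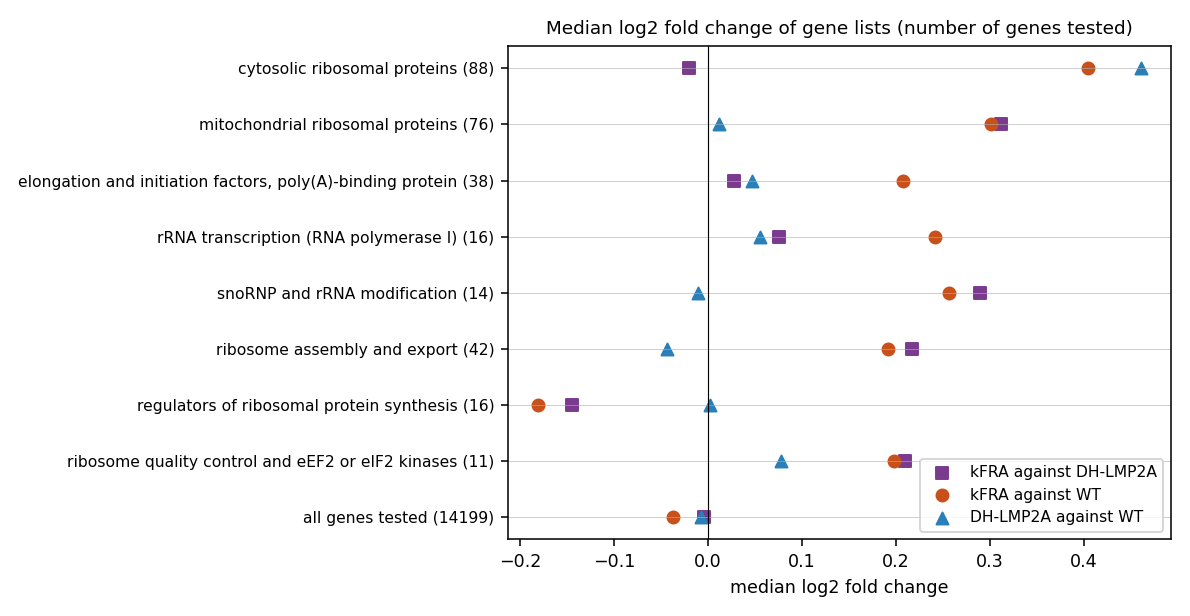
Median log2 fold change of the cytosolic ribosomal protein genes, of 7 lists of translation genes and of all genes tested in 3 comparisons, with the number of genes tested in brackets. In DH-LMP2A against WT (triangles) the cytosolic ribosomal proteins stand at 0.46 and the 7 lists between −0.04 and 0.08.

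The genes called in those lists were few. In DH-LMP2A against WT, 3 of 38 elongation and initiation factors were higher, where 5.07% of all genes were, and 0 lower. Tpt1, whose message also begins with a pyrimidine run, measured 972, 1099 and 1115 CPM in WT and 2036, 1486 and 1872 CPM in DH-LMP2A (log2 fold change 0.76 ± 0.18, SE, adjusted p = 0.0234 by edgeR). Eif3h and Eef1b2 followed at 0.50 and 0.70. Eef2k, the kinase that slows elongation, was lower in DH-LMP2A than in WT by 0.77 on the log2 scale (adjusted p = 0.0327 by edgeR). In kFRA against WT, 6 of 76 mitochondrial ribosomal protein genes were higher, near the 6.68% of all genes that were, and 0 lower. They were led by Mrpl37 (0.81 ± 0.13, SE, adjusted p = 0.00309 by edgeR).

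Of the 16 regulators tested, 1 was higher and 3 were lower in kFRA than in WT, where 6.68% of all genes were called higher and 11.1% lower. Rps6kb2, an S6 kinase gene, measured 31.2, 25.6 and 24.9 CPM in WT, 31.1, 32.7 and 32.2 CPM in DH-LMP2A and 51.0, 45.2 and 50.1 CPM in kFRA. It was higher in kFRA than in either other genotype (log2 fold change 0.84, adjusted p = 0.0021, and 0.61, adjusted p = 0.0226, edgeR). Myc, the transcription factor that drives ribosome production, measured 20.9, 13.7 and 16.4 CPM in WT and 7.52, 9.09 and 10.04 CPM in kFRA, a log2 fold change of −0.94 ± 0.22 (SE, adjusted p = 0.0195 by edgeR). Gtpbp2, a ribosome rescue factor, was higher in kFRA against both, by 0.92 against WT and 0.75 against DH-LMP2A (adjusted p = 0.00435 and 0.0249 by edgeR). Fau and Gnb2l1 (Rack1), ribosomal protein genes outside the symbol rule, were not called in any of the 3 comparisons.

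Markers of some other spleen cells differed between the groups. The erythroid and myeloid sums of WT overlapped neither other genotype, while the B cell and T cell sums of WT overlapped both. The summed level of 7 erythroid markers ran from 39.2 to 340 CPM in WT, 2565 to 13640 CPM in DH-LMP2A and 1167 to 2806 CPM in kFRA, and that of 8 myeloid markers from 1959 to 3342, 501 to 1495 and 844 to 1473 CPM. For 8 B cell markers the ranges were 631 to 916, 732 to 1103 and 541 to 635 CPM, and for 8 T cell markers 91.7 to 152, 106 to 156 and 78.6 to 97.2 CPM. No marker was at 0 in any group. The summed level of the 8 plasma cell markers ran from 18890 to 24140 CPM in WT, 34150 to 47160 CPM in DH-LMP2A and 20400 to 32070 CPM in kFRA. Jchain made up most of this sum, at 15680 to 19910, 27010 to 38650 and 14680 to 25430 CPM. In each comparison with WT 7 of the 8 markers had a log2 fold change above 0. Tnfrsf17 was lower, at 41.3 to 59.5 CPM in WT, 15.6 to 29.0 in DH-LMP2A and 12.4 to 19.2 in kFRA. In DH-LMP2A against WT 3 of the 8 markers were called higher and 1 lower, with a median log2 fold change of 0.66. In kFRA against WT 2 were higher and 1 lower, with a median of 0.39. With a covariate of the markers of other spleen cells in the fit, the median log2 fold change of DH-LMP2A against WT was 0.33. Of the 88 ribosomal protein genes, 78 lay above 0 and Rpl26 was the only one still called. The calls over the whole table fell too, from 1756 to 945 genes. The part of these cells in the differences was not tested further, and that of the plasma cell markers was not tested.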

How the data were processed

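RNA from CD138-selected spleen plasma cells was sequenced as poly(A)-selected, strand-specific paired-end libraries, per the labels' protocols. The authors deposited raw counts for each gene without scaling them. Per the submitters' processing notes, reads were handled with STAR 2.4.0a, featureCounts from Subread 1.5.0-p3 and DESeq2 on mm10 (GRCm38). The counting strand and the treatment of multiply mapped reads are not given in the sources used here. Replicate numbers come from the sample titles.

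Counts were tested with edgeR 4.0.16 in R 4.3.3: filterByExpr, TMM scaling, a quasi-likelihood fit with 1 coefficient for each genotype over all 9 libraries, and 2-sided F tests adjusted by Benjamini-Hochberg over 14199 genes with a threshold of 0.05. The SE is the log2 fold change divided by the square root of F. Log2 CPM used a prior count of 2. Reads carry no molecular identifiers, so intervals and floors describe counting error only. All replicates differed by more than sampling noise. Pseudogene copies were found with BLAST+ 2.17.0 against GENCODE M21, and the sum of a gene with its copies was added after seeing the data. Tables were made in Python 3.11.15 (numpy 2.4.6, scipy 1.17.1). The fit was tested on simulated data. The other alternatives were DESeq2 1.42.0, other scalings and filters, a replicate block, a marker covariate, other sample sets and leaving out each mouse.

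The genes, the gene lists and the tests were chosen with earlier results of these data known. By the rule for named genes, the text draws on the called members with the largest changes, a list of paralogs and of members with known roles, the highest and lowest per kilobase and up to 3 called genes per pathway list. Rpl29, Rpl30 and the pseudogenes of ribosomal protein genes were described after their values were seen.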

Additional observations from a re-analysis of the deposited data

How the results depend on the processing

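The count of called genes changed with the scaling. By library size alone, without TMM factors, the median over all genes was −0.136 (log2) in kFRA against DH-LMP2A. It was 0.174 in kFRA against WT and 0.334 in DH-LMP2A against WT. The counts of called ribosomal protein genes in these 3 comparisons were 4, 71 and 77, and those over all genes 488, 3280 and 2571. The median log2 fold change of the ribosomal protein genes was 0.807 in DH-LMP2A against WT. DESeq2's Wald test called 5, 19 and 20 of them, and 1405, 3515 and 2528 of all genes. Requiring a mean of 5 CPM left 2 ribosomal protein genes in kFRA against WT (1731 calls over all genes tested). The marker covariate left 2 there and 1 in DH-LMP2A against WT (1727 and 945 over all genes). An adjusted p under 0.01 left 1 and 2 (975 and 765 over all genes). With only the 6 libraries compared, kFRA against WT had 2 and DH-LMP2A against WT had 29 (1897 and 2054 over all genes). With pseudogene copies added, kFRA against DH-LMP2A had 1 and DH-LMP2A against WT had 6, and the fold changes of Rpl26 reversed to −0.071 and 0.544.

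Leaving out 1 mouse at a time gave 2 to 12 called ribosomal protein genes for kFRA against DH-LMP2A and 1 to 62 for kFRA against WT. It gave 2 to 7 for DH-LMP2A against WT. Over all genes the calls in these fits were 352 to 3299, 1271 to 5632 and 932 to 1408. The median of the ribosomal protein genes went from −0.274 to 0.174 for kFRA against DH-LMP2A and from 0.193 to 0.649 for kFRA against WT. The ends of both were set by leaving out kFRA replicates 3 and 2. The cause was not tested.

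With the replicate number as a replicate block, 3, 8 and 15 genes were called. Over all genes the calls were then 685, 2930 and 2067, against 713, 2523 and 1756 without the block. Deviations of same-numbered mice correlated between −0.211 and 0.196, not all above 0.1. Those of differently numbered mice ran from −0.267 to 0.293, so this check cannot settle whether same-numbered mice share a batch.

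Without immunoglobulin counts WT, DH-LMP2A and kFRA had shares of 4.54, 5.66 and 5.79%. Over genes that overlap no other gene the shares were 1.39, 2.44 and 2.14%. The ratio of large to small subunit counts was 1.04 ± 0.0146, 1.02 ± 0.00764 and 1.09 ± 0.0226 (SD, n = 3), with every kFRA library above all others. With 3 mice a group, a shift shared by many genes can miss the threshold in each.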
